A study of Mus musculus with 11 samples.

Results

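Glycolysis, the pentose phosphate pathway, the pyruvate dehydrogenase step with the citrate cycle, and the cytosolic to mitochondrial shuttles were followed through 46 genes of the 19329 gene IDs in the deposited expression table. The 46 were taken as named enzymes of these pathways, not by any measured value, and all 46 were found in the table by their Ensembl gene ID. They comprised 14 genes of glycolysis, 9 of the pentose phosphate pathway, 17 of pyruvate dehydrogenase and the citrate cycle, and 6 of the shuttles. The symbol Aldoa belonged to a pair of gene IDs. ENSMUSG00000030695 was used, and the other, ENSMUSG00000114515, carried between 4 and 9 reads a library.

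Bulk RNA sequencing had been done on whole pancreatic islets of untreated, chow-fed male mice aged 14 weeks, with 6 wild-type libraries and 5 libraries from homozygous mice labelled PDX1 P33T/P33T, called P33T here. PDX1 is the homeodomain transcription factor of pancreas development and beta cell identity. P33T exchanges a proline for a threonine in its N-terminal transactivation domain, and the allele had been made by CRISPR-Cas9 in C57BL/6N embryos, so every cell of these mice carried it. Islets had been kept in culture after isolation, and the cohorts had been bred by homozygous intercrosses. By the study's description islets of 6 mice went into a replicate, so p-values measure the spread between such pools and not between mice.

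In beta cells the rate of glucose breakdown sets the ATP level and through it insulin release. Glucose carbon passes down glycolysis to pyruvate, enters mitochondria, and is oxidized in the citrate cycle, while the malate-aspartate and glycerol-phosphate shuttles carry the cytosolic reducing equivalents across the mitochondrial membrane. The pentose phosphate pathway branches off at glucose-6-phosphate and supplies NADPH and ribose. Beta cells are known for little lactate dehydrogenase and much mitochondrial oxidation.

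Libraries held from 17416516 to 29210981 reads on the listed genes in wild-type and from 22849672 to 34866763 in P33T. Ins2 reached 113559 to 162510 FPKM (fragments scaled to gene length and library size) in wild-type and 135342 to 177811 FPKM in P33T, and glucagon (Gcg) 4702 to 11194 and 9022 to 11983 FPKM. In whole islets, fewer cells of a type and less RNA per cell cannot be told apart. The wild-type values of the table stand on rows of other genes for most genes, with 13 of the 7289 identified rows being the gene's own and none of those a member. Wild-type values were used only for genes whose row was identified, by read counts or by gene length and level, which gave 37.7% of the IDs and 31 of the 46 members. The search by length and level accepted only rows within a factor of 2 of the P33T level, so a larger difference could have been seen only in genes identified by reads, among the members Rpe and Me3. Those came from a published gene list of the study, in which 80.4% of the 1672 genes used had an unadjusted limma p under 0.05, so their difference is not independent of that list. The levels in P33T, described next, do not depend on the row search.

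Glycolytic transcripts stood highest among the 4 groups in P33T islets, with a median member at 23.6 FPKM (34.1 without Gapdh, whose values are doubtful) against 17.5 in the citrate cycle group, 14.6 in the pentose phosphate group and 13.6 in the shuttles. Aldoa, the aldolase that splits fructose bisphosphate, was the most abundant member. Its FPKM in P33T replicates 1 to 5 were 295, 267, 306, 299 and 304. Pkm, the pyruvate kinase of most tissues, followed at 179, 138, 170, 168 and 168 FPKM, with replicate 2 below the others. The next enzymes of the lower pathway lay close together: Pgam1 (phosphoglycerate mutase) at 66.5 ± 5.09 FPKM, Pgk1 (phosphoglycerate kinase) at 60.8 ± 8.22, Tpi1 (triose phosphate isomerase) at 56.1 ± 5.26 and Eno1 (enolase) at 54.7 ± 8.14 (mean ± SD, n = 5). Neighbours in that order differed by less than the larger of their SDs. Gpi1, the glucose-6-phosphate isomerase, reached 34.1 ± 3.78 FPKM. The phosphofructokinases, which catalyse the committed step, were lower, with Pfkm at 13.1 ± 1.70 and Pfkl at 12.6 ± 1.64 FPKM.

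Gapdh could not be read as a level. Its gene ID held 0.504, 0.245, 0.353, 3.86 and 7.34 FPKM in P33T replicates 1 to 5, from 24 to 1118 reads, far below its neighbours Tpi1 and Pgk1. This glyceraldehyde-3-phosphate dehydrogenase gene is known for many near-identical processed copies in the mouse genome, and whether reads shared with them set these values was not tested.

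In the pentose phosphate pathway, Prps1, which makes phosphoribosyl pyrophosphate from ribose phosphate, led at 73.7, 137, 87.7, 74.1 and 87.7 FPKM, highest in replicate 2. Taldo1 (transaldolase) stood at 60.5 ± 3.97 FPKM (SD, n = 5). The oxidative enzymes were lower and near each other: Pgls (lactonase) at 18.3 ± 2.08, G6pdx (glucose-6-phosphate dehydrogenase, the entry enzyme) at 16.6 ± 1.31, Pgd (phosphogluconate dehydrogenase) at 12.5 ± 1.61 and H6pd, the endoplasmic reticulum counterpart of G6pdx, at 11 ± 1.23 FPKM. Of the non-oxidative enzymes, Tkt (transketolase) was at 14.6 ± 1.26, Rpe (ribulose phosphate epimerase) at 9.05 ± 3.40 and Rpia (ribose phosphate isomerase) at 5.46 ± 0.304 FPKM.

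In the citrate cycle group, Mdh1 was highest. It is the cytosolic malate dehydrogenase, which serves the malate-aspartate shuttle and was grouped here with its mitochondrial partner. Its values were 80.3, 101, 86.9, 77.3 and 83.9 FPKM. Mdh2, the mitochondrial enzyme, had the highest mean of the cycle proper at 58.8 ± 3.45 FPKM. Ogdh (the decarboxylating subunit of the oxoglutarate dehydrogenase complex) stood at 56.3 ± 6.87, Idh2 (the NADP-linked mitochondrial isocitrate dehydrogenase) at 48.5 ± 2.93 and Fh1 (fumarase) at 45.4 ± 14.0 FPKM (SD, n = 5). Ogdh lay above Mdh2 in P33T replicates 3 (59.7 against 56 FPKM) and 5 (58.1 against 56.3), and below it in replicates 1, 2 and 4. The other 12 members of this group ranged from Dlat, the acetyltransferase of pyruvate dehydrogenase, at 9.07 ± 0.586 FPKM, to Idh3g, a regulatory isocitrate dehydrogenase subunit, at 25.3 ± 0.875 FPKM. Cs, citrate synthase, was among the steadiest members at 11.2, 10.4, 11, 10.9 and 11.4 FPKM. Across the shuttles, Got2 (mitochondrial aspartate aminotransferase) was at 23.6 ± 3.88, Got1 (cytosolic) at 16.9 ± 1.39, Gpd1 (cytosolic glycerol phosphate dehydrogenase) at 14.0 ± 1.45, Me1 (cytosolic malic enzyme) at 13.2 ± 0.653, Gpd2 (the mitochondrial glycerol phosphate dehydrogenase) at 8.21 ± 0.586 and Me3 (a mitochondrial malic enzyme) at 0.278 ± 0.0433 FPKM.

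**Figure D1:**
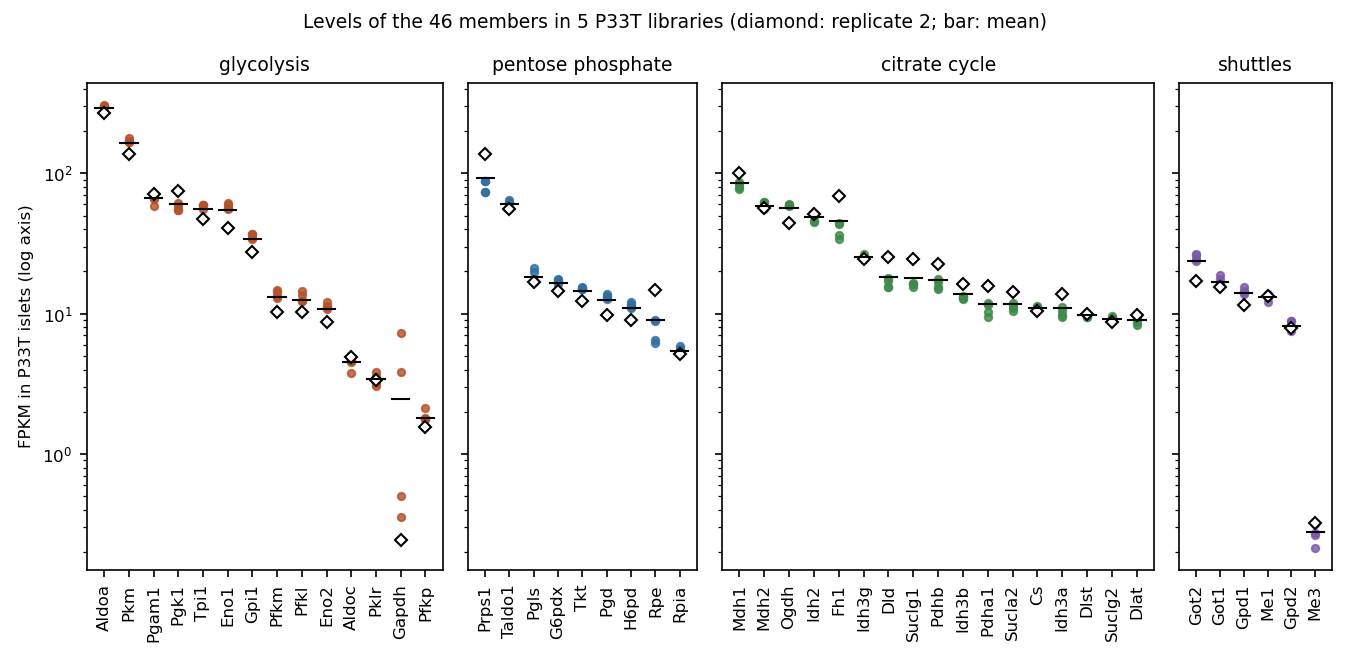
FPKM per gene on a log axis for the 46 members in the 5 P33T libraries, grouped by pathway and ordered by the mean (horizontal bar), with replicate 2 as an open diamond and the other libraries as filled points. Aldoa and Pkm lead at means of 294 and 165 FPKM, Me3 is lowest at 0.278 FPKM, Gapdh spreads from 0.245 to 7.34 FPKM, and the diamonds lie above the points for most citrate cycle members and below them for most glycolytic members.

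Summed per library, glycolysis held 792, 706, 806, 797 and 797 FPKM in P33T replicates 1 to 5, the citrate cycle group 434, 519, 459, 437 and 456, the pentose phosphate group 228, 275, 239, 226 and 233, and the shuttles 79.0, 65.7, 80.7, 78.5 and 76.8. Replicate 2 was lowest in glycolysis and the shuttles and highest in the pentose phosphate and citrate cycle groups. The high pentose phosphate sum there held Prps1 at 137 FPKM, against 73.7 to 87.7 in the other P33T libraries. Of the 9 members of that group, 7 were lowest in replicate 2, so its sum does not stand for most of its genes. The sum over all 46 members moved less, from 1533 to 1584 FPKM. The median member stood at the 86.6th percentile of the gene IDs by its mean P33T level.

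Several steps are shared by isoforms, while some families below pair enzymes of different compartments, such as Gpd1 with Gpd2, or hold subunits of an enzyme. FPKM values, being per length, were set side by side within a library. For most genes that length was the length of all exons together, which can exceed a transcript. For Eno1 it was 5379 bases against 2027 in its longest coding transcript, and Pfkl was divided by 6675 bases but Pfkm by 3340. Shares, and the order of genes by level above, therefore depend in part on these lengths. In 3 of the 11 families a single isoform held nearly all of the sum. Aldoa took 98.5% ± 0.199 of the aldolase FPKM over Aldoc, the brain form, Pkm took 98.0% ± 0.275 of pyruvate kinase over Pklr, the liver and red cell form, and Me1 took 97.9% ± 0.369 of malic enzyme over Me3 (SD, n = 5). Eno1 held 83.4% ± 0.709 of enolase, the rest being the neuronal and endocrine form Eno2. These 4 orders held in 5 of 5 libraries.

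The other families were mixed. Pfkm and Pfkl shared phosphofructokinase almost evenly at 47.6% ± 1.82 and 45.8% ± 2.16, with Pfkp, the platelet form, at 6.63% ± 0.646. Pfkm exceeded Pfkl in 4 of 5 libraries, so the order of this pair did not hold throughout. G6pdx held 60.2% ± 1.2 against H6pd, Mdh1 59.3% ± 3.61 against Mdh2, Gpd1 62.9% ± 2.98 against Gpd2, Got2 58.1% ± 3.84 against Got1 and Sucla2, the ADP-forming succinyl-CoA ligase subunit, 56.0% ± 3.39 against the GDP-forming Suclg2. Each of these 5 leads held in 5 of 5 libraries. Among the subunits of the NAD-linked isocitrate dehydrogenase, Idh3g made up 50.8% ± 3.40, Idh3b 27.5% ± 1.32 and the catalytic Idh3a 21.8% ± 2.19. With 5 libraries an exact sign-flip test of such an order cannot go below p = 0.0625, so only the number of libraries is given.

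**Figure D2:**
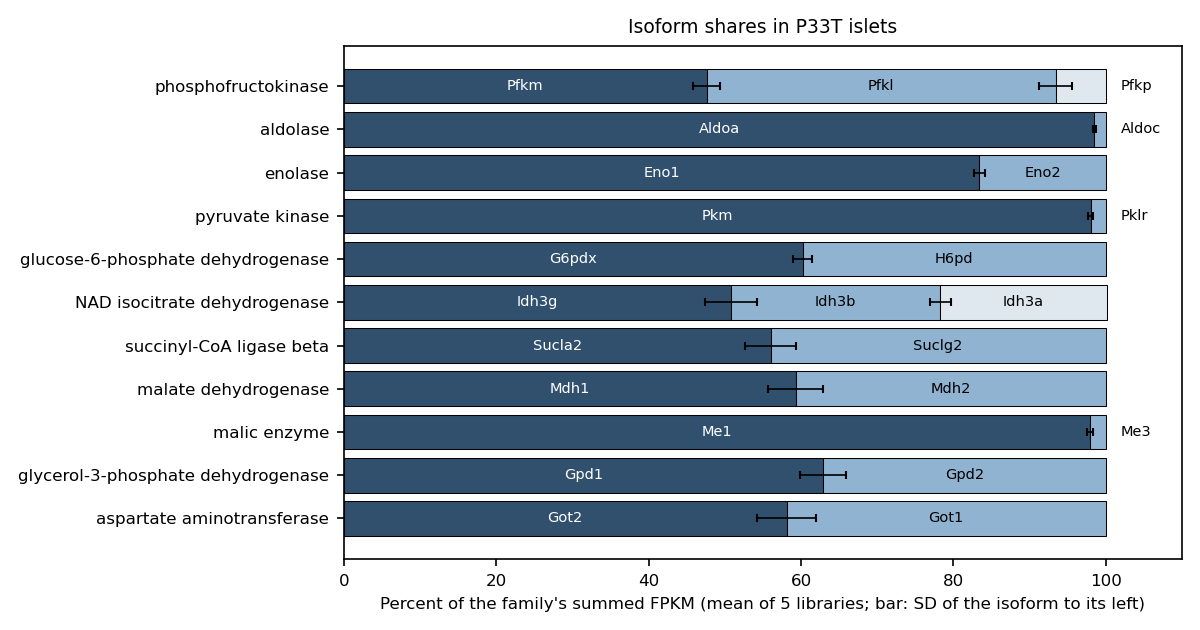
Stacked bars give the mean percent of each family's summed FPKM over the 5 P33T libraries, with an error bar of 1 SD at the right edge of an isoform. Aldolase, pyruvate kinase and malic enzyme are almost wholly 1 isoform (98.5%, 98.0% and 97.9%), while Pfkm and Pfkl split phosphofructokinase at 47.6% and 45.8%.

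P33T islets were then set against wild-type islets for the 31 members with an identified wild-type row, which were 9 of glycolysis, all 9 of the pentose phosphate group, 9 of the citrate cycle group and 4 of the shuttles. Gpi1, Pfkm, Aldoc, Gapdh and Pkm of glycolysis, Dld, Idh2, Idh3a, Idh3b, Idh3g, Ogdh, Dlst and Sucla2 of the citrate cycle group, and Gpd2 and Got1 of the shuttles were not compared. No member passed an adjusted p of 0.05 with a fold change of 1.5 (limma on log2(FPKM + 0.1), Benjamini-Hochberg over all 19329 gene IDs). Over all 7289 genes of the fit, 5 passed, or 0.0686%, with 3 higher in P33T (0.0412%) and 2 lower (0.0274%). The smallest adjusted p of a member was 0.464 by limma. At an unadjusted p under 0.05 stood 3 members, all with higher P33T values, against 25.4% of all genes in the fit and 11.9% with higher P33T values. Genes with little difference were under-represented among those identified, since only 1.18% of them had an unadjusted p above 0.7, and that background is therefore not one of all genes.

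The 3 were Me3, Pklr and Rpe. Me3 was at 0.197, 0.210, 0.131, 0.194, 0.0946 and 0.177 FPKM in wild-type replicates 1 to 6 and at 0.318, 0.320, 0.273, 0.264 and 0.215 FPKM in P33T replicates 1 to 5. The groups did not overlap, as for 1.62% of genes in the fit with higher and 1.67% with lower P33T values, and Me3 was the only member of the 31 of which this held. Its log2 difference was 0.51 ± 0.16 (SE, limma, unadjusted p = 0.00719, adjusted p = 0.464, exact two-sided permutation p = 0.00433, the smallest that the 462 splits of 11 libraries allow). The ratio of the mean FPKM was 1.66, and at this level the 0.1 added before the log2 makes the log2 difference smaller. These values rest on only 37 to 129 reads a library.

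Pklr was at 3.90, 1.89, 2.14, 2.52, 2.46 and 2.72 FPKM in wild-type and at 3.07, 3.36, 3.57, 3.20 and 3.82 FPKM in P33T. Wild-type replicate 1 lay above all P33T libraries and the other 5 wild-type libraries lay below them. The log2 difference was 0.41 ± 0.15 (SE, limma, unadjusted p = 0.0196, adjusted p = 0.464, exact permutation p = 0.0411). After correction for GC content, described further on, it was 0.51. Rpe was at 8.09, 5.85, 4.84, 6.88, 5.68 and 6.42 FPKM in wild-type and at 6.52, 14.7, 9.08, 6.16 and 8.82 FPKM in P33T, where replicate 2 stood far above the rest. Its log2 difference of 0.46 ± 0.20 (SE, limma, unadjusted p = 0.0383, adjusted p = 0.492, exact permutation p = 0.0584) fell to 0.27 without that library. It was 0.24 after correction for GC content (limma, unadjusted p = 0.0676).

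By pathway, 5 of 9 glycolytic members had a log2 difference above 0 and the median was 0.14. In the pentose phosphate group it was 4 of 9 with a median of -0.06, in the citrate cycle group 8 of 9 with a median of 0.20, and in the shuttles 2 of 4 with a median of 0.02. Since genes with little difference were under-represented among those identified, these counts and medians need not hold for the members without a wild-type row. Over all genes of the fit the median was -0.03 and 49.9% lay above 0, and over those with a mean of at least 1 FPKM the median was 0.05. Member differences ran from -0.19 (Pgls and Got2) to 0.51 (Me3). Got2 was at -0.07 without P33T replicate 2 and Pgls at -0.08 without wild-type replicate 3. Without P33T replicate 2 the medians of glycolysis and the citrate cycle group were 0.09 and 0.11. Without wild-type replicate 1, 10 members had an unadjusted p under 0.05, again beside a raised 39.3% of genes in the fit.

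In glycolysis the lowest p-values after Pklr were those of Pgam1 and Tpi1, on opposite sides of 0. Pgam1 was at 72.0, 49.4, 40.7, 57.4, 63.5 and 57.0 FPKM in wild-type and at 58.7, 71.5, 70.5, 65.4 and 66.6 FPKM in P33T, a log2 difference of 0.25 ± 0.13 (SE, limma, adjusted p = 0.593). Tpi1 was at 61.9 ± 4.64 FPKM in wild-type (SD, n = 6) against 56.1 ± 5.26 in P33T, a log2 difference of -0.14 ± 0.09 (SE, limma, adjusted p = 0.739). In both, the groups overlapped. Pgam1 was at 0.16 without wild-type replicate 3 and Tpi1 at -0.08 without P33T replicate 2. After correction for GC content Pgam1 was at 0.32 and Tpi1 at -0.06. Aldoa was at 318, 213, 249, 274, 281 and 263 FPKM in wild-type, within which all P33T values fell. Its log2 difference was 0.15 (limma, adjusted p = 0.844), and 0.32 after that correction.

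In the pentose phosphate group, G6pdx and Prps1 followed Rpe. G6pdx was at 19.0, 18.5, 20.8, 18.2, 17.6 and 17.2 FPKM in wild-type and at 16.4, 14.4, 17.1, 17.6 and 17.4 FPKM in P33T. The log2 difference was -0.16 ± 0.08 (SE, limma, unadjusted p = 0.0592, adjusted p = 0.543, exact permutation p = 0.0173). Prps1 was at 99.1, 70.5, 60.5, 67.6, 64.5 and 71.1 FPKM in wild-type, where replicate 1 stood apart as replicate 2 did in P33T, and its log2 difference was 0.33 ± 0.17 (SE, limma, adjusted p = 0.577), or 0.18 without P33T replicate 2.

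In the citrate cycle group the lowest unadjusted p-values belonged to Suclg2, Fh1 and Pdha1, the catalytic subunit of pyruvate dehydrogenase. Fh1 was at 49.8, 33, 20.3, 35.2, 34.4 and 30.1 FPKM in wild-type and at 34.3, 69.2, 43.2, 36.2 and 44.0 FPKM in P33T, a log2 difference of 0.43 ± 0.22 (SE, limma, adjusted p = 0.573). P33T replicate 2 lay far above the other P33T libraries, and in wild-type replicate 1 was highest and replicate 3 lowest, both set off from the rest. The difference was 0.26 without P33T replicate 2. Leaving out the lowest wild-type library gave 0.29, and leaving out the highest gave 0.55. Suclg2 differed by 0.24 ± 0.11 (SE, limma, adjusted p = 0.537) and Pdha1 by 0.23 ± 0.13 (adjusted p = 0.637). Suclg2 was at 0.15 without wild-type replicate 3 and 0.09 after correction for GC content, described further on, and Pdha1 at 0.12 without P33T replicate 2 and 0.11 after that correction. Cs, with 11.9 ± 0.846 FPKM in wild-type (SD, n = 6) and 11 ± 0.367 in P33T, was the one member of the 9 below 0, at -0.11 ± 0.07. In the shuttles Got2 (-0.19 ± 0.11) and Me1 (0.10 ± 0.10, 0.02 without wild-type replicate 2) followed Me3, with adjusted p of 0.713 and 1 by limma.

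**Figure D3:**
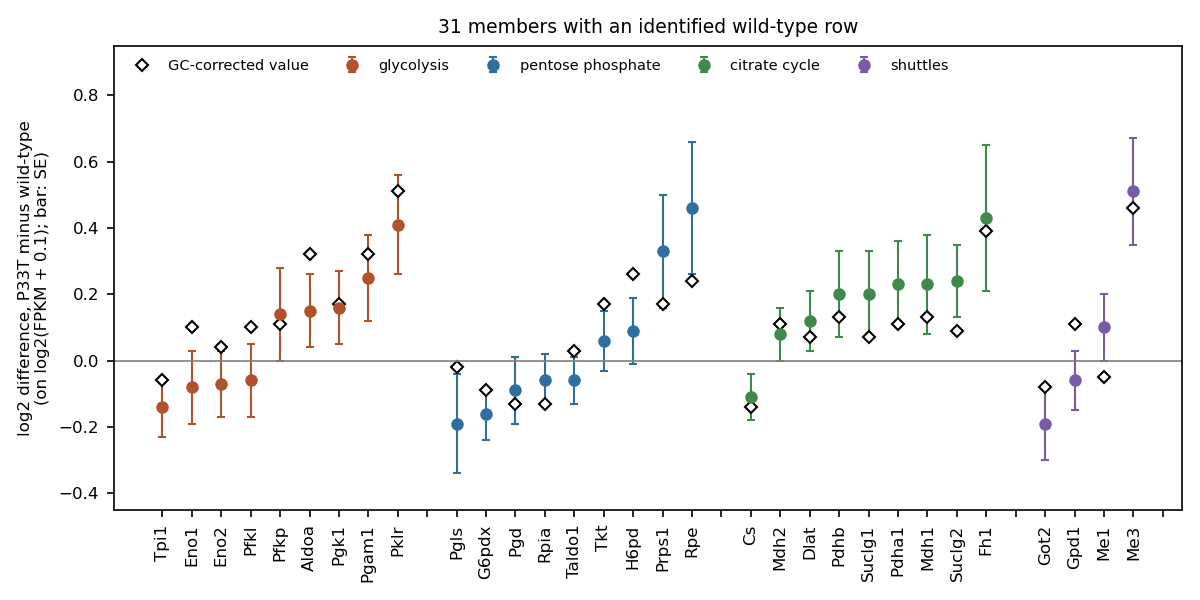
Log2 difference of P33T minus wild-type (filled points, bar 1 SE) for the 31 compared members by pathway, with the value after correction for transcript GC content as open diamonds. No member passed the test. The 9 citrate cycle members lie between -0.11 and 0.43, 8 of them above 0, and the diamonds of most of those lie nearer to 0.

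**Figure D4:**
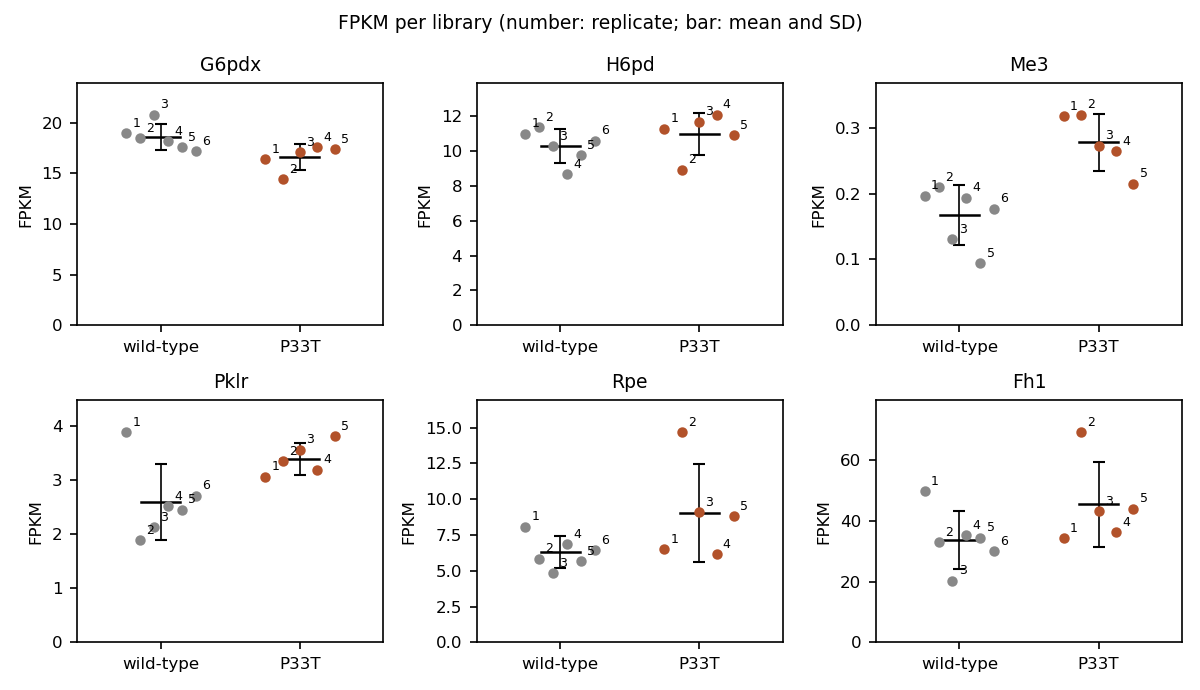
FPKM of 6 members in each wild-type and P33T library (points numbered by replicate, bars mean and SD). The Me3 groups do not overlap, for Pklr wild-type replicate 1 lies above the P33T libraries and the other wild-type libraries below them, and P33T replicate 2 is highest for Rpe and Fh1 at 14.7 and 69.2 FPKM.

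Isoform shares were compared between the genotypes in the 4 families whose isoforms all had a wild-type row, with p-values not adjusted for the 4 tests. The G6pdx share of glucose-6-phosphate dehydrogenase was 63.3, 61.9, 67.0, 67.8, 64.3 and 61.8% in wild-type and 59.4, 61.6, 59.3, 59.3 and 61.3% in P33T. The groups did not overlap, and the difference was 4.17 percentage points toward H6pd (exact two-sided permutation p = 0.0108). Both genes had their row by length and level, and genes with little difference were under-represented among those identified. No background of other gene pairs is given for this p. Leaving out any 1 library kept the exact permutation p between 0.00794 and 0.0238, but under both stricter rules for wild-type rows G6pdx had no row and the share could not be formed. On the log2 ratio the difference between the isoforms was -0.26, and it was -0.35 after correction for GC content (exact permutation p = 0.00433). The components were -0.16 for G6pdx and 0.09 for H6pd on the log2 scale, and -0.09 and 0.26 after the correction, and neither gene passed the adjusted test.

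Me1 made up 98.6% ± 0.529 of malic enzyme in wild-type (SD, n = 6) and 97.9% ± 0.369 in P33T, and the groups overlapped (exact permutation p = 0.039). That p rose above 0.05 when any of 7 libraries was left out, up to 0.0857 without P33T replicate 1. The Mdh1 share was 56.6% ± 4.31 in wild-type and 59.3% ± 3.61 in P33T (exact permutation p = 0.348), and the Eno1 share was 83.4% in both genotypes (exact permutation p = 0.924).

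P33T replicate 2 stood apart from the other 4 P33T libraries in a way that split the pathways. It was the highest library for 11 of 17 citrate cycle members and the lowest for 10 of 14 glycolytic (9 of 13 without Gapdh) and 7 of 9 pentose phosphate members. Over the 11179 genes with at least 1 FPKM it was highest for 41.5% and lowest for 36.9%. Its values were above the mean of the others by 0.94 (log2) for Rpe, 0.81 for Fh1, 0.77 for Prps1 and 0.62 for Dld and Suclg1, and below by -0.57 for Got2, -0.51 for Eno1 and -0.44 for Pgd.

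These deviations ran with the base composition of the transcripts, which was not particular to this library. Across 6353 genes, Spearman's rho between GC content and a library's deviation from its genotype mean was 0.63, -0.54, -0.03, 0.56 and -0.12 in P33T replicates 1 to 5, and it ran from -0.41 in replicate 1 to 0.34 in replicate 3 in wild-type. Citrate cycle members had a median GC content of 47.2% and glycolytic members of 53.8%, against 50% for genes of at least 1 FPKM. Across 45 members, Gapdh left out, Spearman's rho between GC content and the log2 ratio of replicate 2 was -0.73, and across 11024 genes it was -0.48, a description of points that share the same libraries. Stretches of 90 coding bases from the middle of the longest coding exon of the 2 highest and the 2 lowest members in replicate 2 are given as examples of their sequence, with G and C in capitals, read 5′ to 3′ on the coding strand from GENCODE vM21 transcripts (GRCm38). Rpe lies on chr1:66714602-66714691 (plus strand, exon 4 of 7) with 45.6% GC in the stretch, above the 39.1% of the transcript it comes from. Fh1 lies on chr1:175607874-175607963 (minus strand, exon 7 of 10) with 51.1%, above the 47.7% of its whole transcript. Eno1 lies on chr4:150245181-150245270 (plus strand, exon 7 of 12) and Got2 on chr8:95869510-95869599 (minus strand, exon 8 of 10). Both have 55.6%, against 57.4% and 54.5% in their whole transcripts.
Rpe: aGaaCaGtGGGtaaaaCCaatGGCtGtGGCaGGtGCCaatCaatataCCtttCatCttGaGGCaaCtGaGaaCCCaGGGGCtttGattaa
Fh1: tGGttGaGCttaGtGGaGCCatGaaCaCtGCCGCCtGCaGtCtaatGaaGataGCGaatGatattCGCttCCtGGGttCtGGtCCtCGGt
Eno1: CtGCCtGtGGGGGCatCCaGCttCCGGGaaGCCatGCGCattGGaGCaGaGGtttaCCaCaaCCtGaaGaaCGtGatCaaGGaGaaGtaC
Got2: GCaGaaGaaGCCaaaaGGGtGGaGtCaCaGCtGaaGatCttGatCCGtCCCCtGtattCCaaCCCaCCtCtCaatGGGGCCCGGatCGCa

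**Figure D5:**
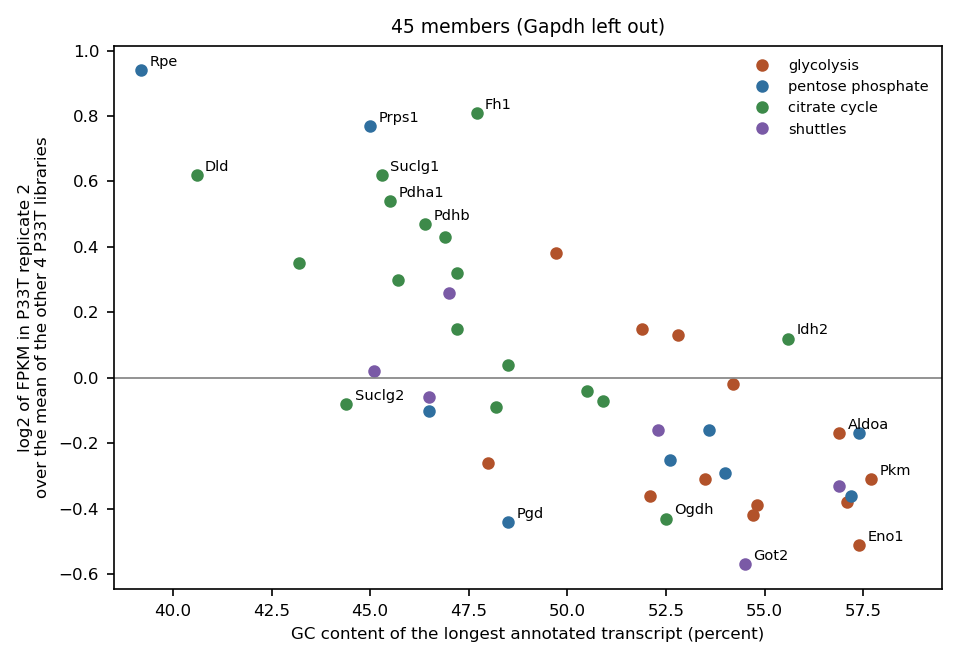
Log2 ratio of P33T replicate 2 to the mean of the other 4 P33T libraries against the GC content of each gene's longest annotated transcript, for 45 members coloured by pathway. Rpe (39.2% GC, 0.94) and Got2 (54.5% GC, -0.57) mark the ends, and Pgd (48.5% GC, -0.44) and Fh1 (47.7% GC, 0.81) lie far apart at a similar GC content.

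Other values moved in the same library. Of 8 acinar markers listed, 7 were in the table, all highest there, and their sum was 109 FPKM against 8.46 to 18.7 in the other P33T libraries; none of them had a wild-type row. Of 7 beta cell markers, 4 were highest there, among them Iapp at 56328 FPKM against 28444 to 31927, while Mafa at 203 against 266 to 287 and Nkx6-1 at 87.2 against 108 to 121 were lowest. The 13 mitochondrially encoded mRNAs summed to 14976 FPKM against 7122 to 10983. The 4 endothelial markers were lowest there and summed to 53.1 FPKM against 89.3 to 123. In wild-type, replicate 1 was highest for 8 of 9 citrate cycle members, beside 33.7% of genes in the fit with at least 1 FPKM, with an endothelial sum of 70.9 FPKM, and replicate 3 was lowest for 6 of those 9, beside 34.3% of such genes, with an endothelial sum of 390 FPKM, against 106 to 161 in the other 4. The part of cell composition or library quality in the member values was not tested. The genotype difference also ran with GC content, with a rho of -0.60 across the 31 members and -0.52 across 6353 genes. After correction for GC content the citrate cycle median was 0.11 and that of glycolysis 0.11, with 8 of 9 members above 0 in both groups, and the smallest adjusted p of a member was 0.508 by limma. At an unadjusted p under 0.05 (limma) then stood 5 members, 3 of them glycolytic, beside 21.2% of genes in the fit.

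Of 48 further genes of glucose and pyruvate metabolism, 29 had a wild-type row and none passed the adjusted test. At an unadjusted p under 0.05 stood 8 with higher and 2 with lower P33T values, beside 11.9% and 13.5% of genes in the fit, and the median log2 difference was 0.15. Of these 10, 7 had their row from the published gene list, Pdk4, Fbp1, Me2 and Hk1 among them, so their low p-values are not independent of that list. Pdk4, the kinase that switches off pyruvate dehydrogenase, had the lowest p. It was at 2.71 ± 0.446 FPKM in wild-type (SD, n = 6) and 3.75 ± 0.324 in P33T (n = 5), the groups did not overlap, and the log2 difference was 0.47 ± 0.12 (SE, limma, unadjusted p = 0.00231, adjusted p = 0.464). Fbp1, the gluconeogenic bisphosphatase, followed at 0.55 ± 0.19 and Me2, the other mitochondrial malic enzyme, at 0.34 ± 0.13 (SE, limma, adjusted p = 0.464 for both). After correction for GC content the differences were 0.31 for Pdk4, 0.63 for Fbp1 and 0.19 for Me2. The next 2 genes were picked after their values were seen. Hk1, a high-affinity hexokinase, had a log2 difference of -0.72 ± 0.29 (SE, limma, adjusted p = 0.478). Wild-type replicate 3 was at 5.75 FPKM for this gene, against 1.32 to 2.48 in the other wild-type libraries. The difference was -0.48 without that library, -0.89 without wild-type replicate 1 and -0.55 after correction for GC content. In P33T islets Hk1 stood at 1.49 ± 0.412 FPKM (SD, n = 5) and Ldha, lactate dehydrogenase A, at 6.96 ± 1.22 FPKM.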

How the data were processed

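The authors trimmed reads with fastp 0.23.1, aligned them with HISAT2 2.0.5 and counted genes with featureCounts 1.5.0-p3 (GRCm39, mm39, per the submitters' processing notes), and deposited FPKM values per gene. Strandedness is not given per library in the sources used here. Members and lists were chosen with earlier results of these data known.

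Gene lengths and reads were recovered from the FPKM. The FPKM denominators were scaled library sizes, since reads on listed genes came to 0.7795 to 1.091 of them. Lengths equalled the GENCODE vM21 exon union for 92% of 18442 IDs. Wild-type rows were assigned by the study's published reads (1672 genes) or by equal length and a mean level within 1 on the log2 scale, with a margin of 1 over other pairings (5617 genes), a rule set after seeing the values. In a check of the second rule on genes known by reads, 706 got the right row and 2 a wrong one, and when the true row was removed 4 of 1672 got another. Neither check covers genes absent from the published list.

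FPKM were tested as log2(FPKM + 0.1) with limma 3.58.1 (R 4.3.3; trend and robust options, no covariates), adjusted over all 19329 IDs with unplaced genes counted as not different. Single values were tested with exact permutation over all 462 splits of 11 libraries (Python 3.11.15, scipy 1.17.1). On simulated counts for 7289 genes, 97.9% of changes of 1 and 98.1% of changes of 1.5 (log2) were found at a dispersion of 0.03, and 42.1% and 96.2% at 0.1. The limit of the row search, 1 on the log2 scale, was not simulated. These shares therefore do not hold for changes of 1 or more in genes placed by length and level. All compared members but Rpe and Me3 were placed that way. Smaller changes, and deviations of whole libraries such as those with GC content, were not simulated either. Named members were all called ones, all isoforms and the 3 lowest unadjusted p-values per group. GC correction subtracted each library's median deviation in 20 bins of GC content of the longest annotated transcript.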

Additional observations from a re-analysis of the deposited data

Results flagged for a closer look

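A sample far from its group, by Dixon's criterion, was found in 14 of 96 sets of values tried. Chance gives about 1 in 20 for a single set. The 96 sets share the same libraries, and the sums and shares hold the same genes, so a deviating library is counted many times. In 12 of the 14 it was P33T replicate 2. There Prps1 (137 FPKM against 73.7 to 87.7 in the other P33T libraries), Fh1 (69.2 against 34.3 to 44.0), Dld (25.5 against 15.4 to 18.0), Suclg1 (24.7 against 15.4 to 16.5) and Idh3b (16.3 against 12.7 to 13.4) stood high. Pkm (138 against 168 to 179), Ogdh (44.0 against 58.1 to 60.2), Tkt (12.4 against 15.0 to 15.4) and Pgd (9.71 against 12.7 to 13.7) stood low. Of the sums, glycolysis at 706 FPKM and shuttles at 65.7 stood low. The pentose phosphate group at 275 stood high with Prps1, although 7 of its 9 members were lowest in that library. In wild-type, replicate 1 stood apart for Prps1 (99.1 FPKM against 60.5 to 71.1) and replicate 3 for the Mdh1 share of malate dehydrogenase (48.6% against 56.4 to 60.7%).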

How the results depend on the processing

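The number of members called was 0 under every alternative run, which were other pseudocounts (0.01, 1), a mean of at least 1 FPKM, median-ratio scaling, limma without trend and robust options, replicate blocks, each library left out, other row rules, GC correction, adjustment within the fit, and other fold thresholds. The direction of single members turned only without P33T replicate 2 (Pfkl 0.01 and Eno1 0.03, each from a low of -0.12 when another library was left out) and after GC correction (Pfkl 0.10, Eno1 0.10, Eno2 0.04, Taldo1 0.03, Me1 -0.05, Gpd1 0.11). The pentose phosphate median was 0.03 after GC correction and 0.46 with rows by reads alone (Rpe only). The shuttle median was 0.51 with rows by reads alone (Me3 only), 0.22 under the single-candidate row rule and -0.06 with the FPKM filter. Rows by reads alone gave no glycolytic or citrate cycle member. GC correction and the 2 other row rules were chosen after seeing the data. Leaving out 1 library moved the Eno1 share difference between -0.276 and 0.206 percentage points and that of Me1 between -0.856 and -0.549, and GC correction gave a log2 ratio of 0.06 for Eno1 over Eno2. On the TPM scale the P33T sums were 1536 for glycolysis, 469 for pentose phosphate, 900 for the citrate cycle and 150 for shuttles, from that scale's construction. Same-numbered libraries correlated in their deviations from -0.61 to 0.13 by titles. By library names, which number P33T replicates 3 to 5 differently, the range was -0.61 to 0.12. These correlations showed no pairing by number, but they cannot tell whether same-numbered samples were handled together. With the replicate block the count of members called stayed 0. All-gene calls were then 0 higher and 1 lower by titles and 1 and 1 by library names, against 3 and 2 without it. Without wild-type replicate 1, 4 genes were called higher and 4 lower. Depth limits Me3 (37 reads in its lowest library). Under the narrower and the single-candidate row rules the G6pdx share could not be compared.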
